A study of Rattus norvegicus with 9 samples.

Results

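Ribosome biogenesis genes and genes of RNA polymerase I were followed in primary rat osteoblasts that had been given thrombin, or thrombin together with the MEK inhibitor PD0325901 (PD03). The set was a list of 44 gene symbols named for nucleolar ribosome assembly factors and RNA polymerase I genes. It was set by gene function and not by a cut on measured values. It was chosen with earlier results of these data known, however, so it is not independent of them. Of the 44 symbols, 43 had a row in the table of 19085 genes, and all 43 passed the filter on low counts that left 13256 genes for testing. Wdr74 had no row under its symbol and was not analysed here.

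The cells were digested from calvariae, the donors being male Sprague-Dawley pups aged 24 hours, although GEO's source label for the samples reads knee, and all cells were kept for 7 days in osteogenic induction medium with β-glycerophosphate, ascorbic acid and dexamethasone. The control group had induction medium alone, the thrombin group had 20 U/mL thrombin, and the PD03 group had 20 U/mL thrombin with PD03, at 0.1 µM in the series design and in the paper but at 0.1 mM in a label protocol. Each group held 3 libraries, and all 9 were used. No group had PD03 without thrombin, so PD03 against thrombin tests the inhibitor, while PD03 against control tests both agents together. The study's methods describe 3 independent samples per group without saying whether they came from separate animals, so the p-values measure the spread between these samples, which may be technical.

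Ribosomes are made in the nucleolus. RNA polymerase I transcribes the long ribosomal RNA precursor, small nucleolar ribonucleoproteins (snoRNPs) guide the chemical modification and part of the cutting of that RNA, and a large number of assembly factors fold it onto ribosomal proteins as the small and large subunits. Signalling through MEK and ERK and the transcription factor Myc are known to raise this programme in growing cells, and osteoblasts, which secrete large amounts of collagen, need a high capacity for protein synthesis. Messenger RNA was measured, so neither ribosomal RNA nor its processing was read.

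Total counts lay between 15447832 and 19841468 per library, and the lowest count of any tested member in any library was 178. All 13 osteoblast markers on the list had counts. The share of counts that fell on Col1a1, a chain of type I collagen, was 4.18 to 5.05% in the control and thrombin libraries and 6.78 to 6.96% in the PD03 libraries. Late or defining markers were close to 0, with at most 5 counts of Bglap, 1 of Ibsp and 4 of Dmp1 in any library, and Alpl averaged 1.67, 0.345 and 3.11 CPM in the control, thrombin and PD03 groups. CPM here is a count scaled to library size, with TMM correction, which sets libraries side by side by the bulk of their genes. Of the markers of other cells, 7 of 8 chondrocyte, 7 of 7 adipocyte, 10 of 10 myeloid and 5 of 7 endothelial genes had counts. The summed chondrocyte markers reached 97.2 to 107.5, 73.2 to 79.5 and 93.9 to 101 CPM in the control, thrombin and PD03 libraries, the adipocyte markers 212 to 221, 104 to 110 and 163 to 173 CPM, the myeloid markers 134 to 145, 102 to 109 and 172 to 181 CPM, and the endothelial markers 7.88 to 8.90, 7.34 to 9.75 and 12.02 to 14.1 CPM. Col2a1 made up most of the chondrocyte sum, Lpl most of the adipocyte sum and Ctsk most of the myeloid sum, so these sums say little about the other markers. The defining markers Adipoq and Plin1 (at most 1 and 3 counts) and Ptprc (at most 6 counts) were near 0. The part of other cells in the results below was not tested.

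The ribosome biogenesis genes were lower in the PD03 group than in either other group, by modest amounts and in nearly every member. Added together, they made up 0.306 to 0.313% of the counts in the control libraries, 0.315 to 0.332% in the thrombin libraries and 0.219 to 0.236% in the PD03 libraries. On the TMM scale their sum was 2932 to 3049 CPM with control, 3090 to 3262 CPM with thrombin and 2298 to 2478 CPM with PD03, so the PD03 libraries lay below all the others. In 34 of the 43 members all 3 PD03 libraries lay below all 6 other libraries, an arrangement found in 17% of all tested genes. The lowest of the 9 libraries was a PD03 library in 41 members, but the share of all tested genes for which this held was not counted. In such bulk samples, fewer cells of a type and less RNA per cell cannot be told apart.

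**Figure D1:**
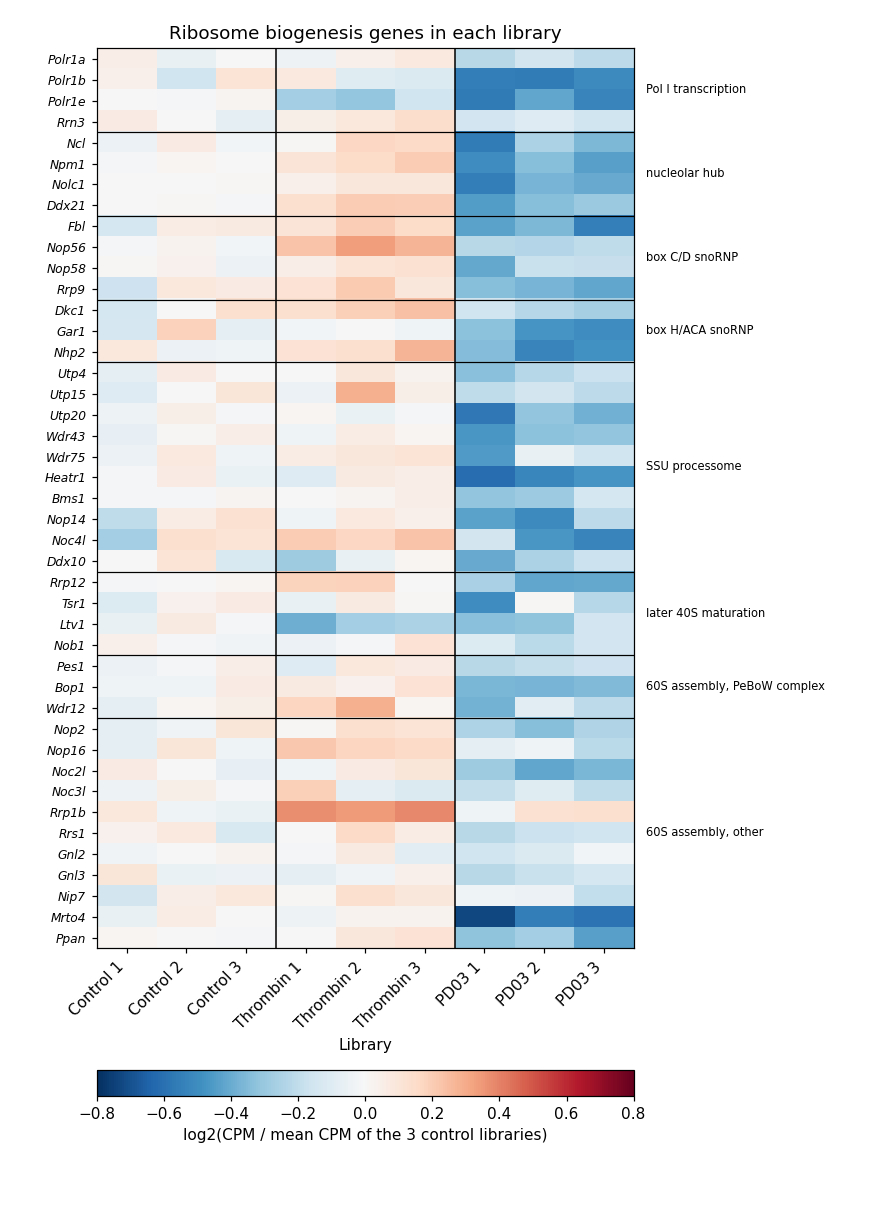
Level of each of the 43 tested ribosome biogenesis genes (rows, grouped by role) in each of the 9 libraries (columns), as log2 of CPM over the mean CPM of the 3 control libraries, with blue lower and red higher. The 3 PD03 columns are blue in nearly all rows apart from Rrp1b, the row with the deepest red in the thrombin columns, and Ltv1 is blue in both treated groups.

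Against thrombin alone, 38 of 43 members fell with PD03 and 0 rose (adjusted p under 0.05, edgeR's quasi-likelihood test, adjusted over all 13256 genes). At an unadjusted p under 0.05 the number higher was also 0, and DESeq2 and limma voom also gave 0. Among all tested genes 24.5% fell and 25.3% rose in the same comparison. The median change of the members was -0.39 on the log2 scale, a decrease of 23.5%, where the median of all genes was 0.01. The libraries of the PD03 and thrombin groups did not overlap, with PD03 lower, in 38 members and in 27.1% of all genes. Few members passed the study's larger threshold, an absolute log2 fold change above 0.58 with an adjusted p under 0.05. Only Fbl, Nhp2 and Mrto4 were below it, against 6.31% of all genes below and 9.61% above. That number rose to 5 when thrombin replicate 1, thrombin replicate 2 or PD03 replicate 2 was left out, and it was 12 when libraries were scaled by their totals. It was 2 without thrombin replicate 3 or PD03 replicate 3, and 0 in a test against the fold threshold itself (glmTreat). DESeq2 gave 36 members lower against thrombin, without Polr1e (adjusted p = 0.075) and Gnl3 (adjusted p = 0.071). The 5 members that did not pass were Ddx10, Ltv1, Noc3l, Gnl2 and Nip7, with log2 fold changes of -0.17, 0.04, -0.17, -0.09 and -0.17. The estimate was lower in 42 of the 43 members, Ltv1 being the exception.

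Against the control group, which had neither agent, 37 of 43 members were lower with PD03 and 0 were higher (0 also at an unadjusted p under 0.05, and with DESeq2 and limma voom), where 20.2% of all genes were lower and 19.7% higher. The median change was -0.27 on the log2 scale, a decrease of 17.2%, beside a median of 0.00 for all genes. PD03 and control libraries did not overlap, with PD03 lower, in 37 members and in 24% of all genes. Mrto4 alone was past the larger threshold, which 4.07% of all genes passed downward and 4.9% upward; without PD03 replicate 1 its change was -0.57 and no member passed, and without control replicate 2 the number was 2. With DESeq2, the study's own tool, 29 members were lower than in control. The 8 it lost were Rrn3, Wdr75, Ddx10, Tsr1, Nob1, Wdr12, Rrs1 and Gnl3, with DESeq2's adjusted p between 0.052 and 0.10. Both comparisons share the PD03 libraries, so they are not independent, and the share of all genes lower in both was not counted. Of the 43 members, 35 were lower than in both other groups, 3 (Utp15, Nop16 and Rrp1b) were lower than with thrombin only, 2 (Ddx10 and Ltv1) were lower than in control only, and 3 (Noc3l, Gnl2 and Nip7) passed in neither.

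Thrombin alone moved few of these genes. Against control, 8 of 43 members rose (Npm1, Ddx21, Fbl, Nop56, Dkc1, Nhp2, Nop16 and Rrp1b) and Ltv1 fell, where 14.1% of all genes rose and 14.6% fell. A share of 8 in 43 is near that background. At an unadjusted p under 0.05, 10 members were higher and 2 lower. No member passed the larger threshold in either direction under edgeR, DESeq2 or limma voom, whereas 2.62% of all genes passed it upward and 5.44% downward. The thrombin libraries lay above all control libraries in 12 members, and in 20.1% of all genes. The median of the members was 0.07 on the log2 scale, beside -0.01 for all genes. Without control replicate 1 the number that rose was 5, with Fbl (adjusted p = 0.32), Dkc1 (adjusted p = 0.080) and Nop16 (adjusted p = 0.14) no longer past the test. DESeq2 gave 6 that rose, without Fbl (adjusted p = 0.059) and Nop16 (adjusted p = 0.052). All 8 that rose with thrombin fell when PD03 was added. Of these, 6 ended below control as well, and Nop16 and Rrp1b did not. The thrombin libraries serve both comparisons, so the rise and the fall of these 8 are not independent.

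**Figure D2:**
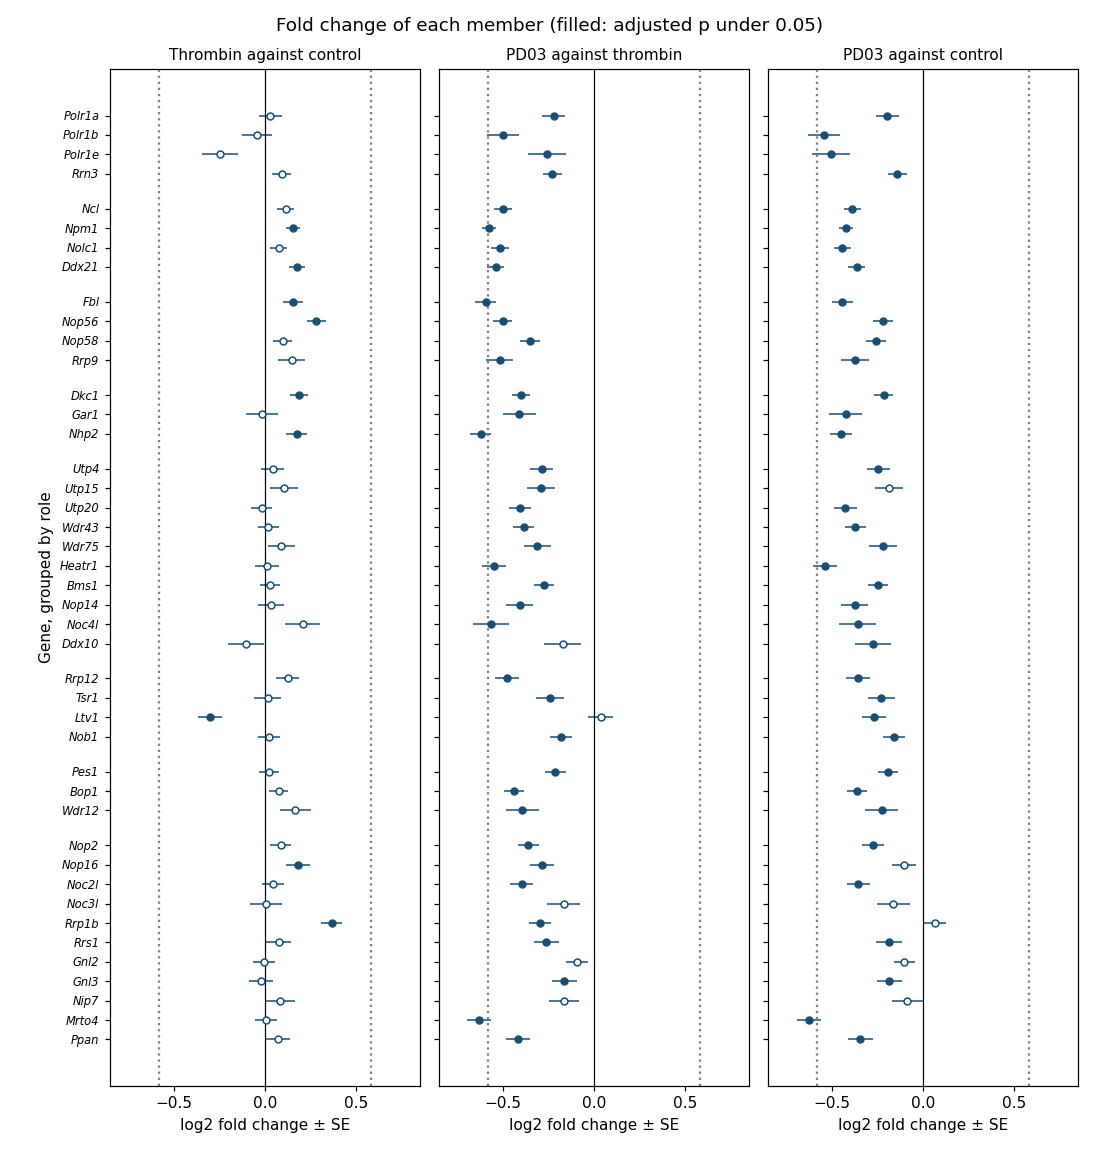
Log2 fold change of each of the 43 tested members in the 3 comparisons, as points with bars of 1 standard error. Filled points passed an adjusted p under 0.05, and dotted lines mark 0.58 on either side. Most points for thrombin against control are open and near 0, while 38 and 37 points are filled and left of 0 in the PD03 comparisons.

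The 4 genes of RNA polymerase I transcription all fell with PD03 against both groups, and none passed with thrombin alone. Polr1b, the second largest subunit of the polymerase, fell furthest. It stood at 26.5, 23.2 and 27.9 CPM in the control libraries, 27.3, 24.2 and 23.8 CPM in the thrombin libraries and 17.6, 17.6 and 18.2 CPM in the PD03 libraries. The PD03 libraries were close together and below all 6 others, and the control and thrombin libraries overlapped. The log2 fold change of Polr1b was -0.50 against thrombin (SE 0.09, adjusted p = 4.9e-06) and -0.54 against control (SE 0.09, adjusted p = 1.6e-06). Polr1a, the largest subunit, was at 42.7, 39.7 and 41.4 CPM with control, 40.2, 42.4 and 43.6 CPM with thrombin and 35.4, 37.2 and 35.6 CPM with PD03. Its decrease against thrombin was smaller, 14.2% (log2 fold change -0.22, SE 0.06, adjusted p = 0.0034). Rrn3 encodes the factor that brings the polymerase to the ribosomal RNA promoter and is a known target of ERK signalling at the protein level. Rrn3 messenger RNA read 77.7, 74.5 and 70.7 CPM with control, 76.8, 78.6 and 82.0 CPM with thrombin and 67.0, 69.2 and 66.4 CPM with PD03, so that it fell against thrombin by 0.23 on the log2 scale (SE 0.05, adjusted p = 0.0003).

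Polr1e, a subunit of the polymerase's peripheral heterodimer, was the only gene of this group whose thrombin libraries lay below the control libraries. The values were 15.7, 15.5 and 15.9 CPM with control, 13.0, 12.7 and 14.1 CPM with thrombin and 10.6, 11.8 and 10.9 CPM with PD03. The 3 groups therefore formed a descending series with no overlap. The step from control to thrombin did not pass (log2 fold change -0.25, SE 0.10, adjusted p = 0.059), although it did with library totals (adjusted p = 0.043) and with FPKM (adjusted p = 0.017). The step from thrombin to PD03 passed narrowly (log2 fold change -0.26, SE 0.10, adjusted p = 0.036), and failed without thrombin replicate 3 (adjusted p = 0.14), PD03 replicate 1 (adjusted p = 0.11) or PD03 replicate 3 (adjusted p = 0.085). Against control the decrease was 29.5% (log2 fold change -0.50, SE 0.10, adjusted p = 8.8e-05). The smaller decreases of Polr1a and Rrn3 against control were -0.19 and -0.14 on the log2 scale (adjusted p = 0.013 and 0.032). Polr1a failed there without control replicate 1 (adjusted p = 0.066), and Rrn3 without control replicate 1 (adjusted p = 0.17), control replicate 2 (adjusted p = 0.060), PD03 replicate 1 (adjusted p = 0.059) or PD03 replicate 3 (adjusted p = 0.097).

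Of 11 further polymerase I subunits and factors, all tested, 6 fell with PD03 against thrombin and none rose, and 3 were lower than in control. Their median log2 fold changes were -0.22 and -0.11. With thrombin alone 1 rose (Polr1g, log2 fold change 0.41, adjusted p = 0.00082) and 1 fell (Polr1d, -0.15, adjusted p = 0.034), where 14.1% of all genes rose and 14.6% fell. Polr1g had the largest fall of this list with PD03 against thrombin (-0.52, adjusted p = 1.9e-05) and did not pass against control (-0.105, adjusted p = 0.44). Polr1d did not pass with PD03 against thrombin (0.04, adjusted p = 0.6). Taf1d, a subunit of the promoter selectivity complex, and Ubtf, the factor that opens ribosomal RNA genes, were picked out after their values were seen. Taf1d averaged 29.8 ± 1.09, 27.1 ± 1.08 and 20.1 ± 2.14 CPM (SD, n = 3) in the control, thrombin and PD03 groups, and Ubtf 162 ± 2.94, 152 ± 0.948 and 138 ± 4.43 CPM (SD, n = 3). Among 21 tested genes of RNA polymerase III, which makes the small ribosomal RNA and transfer RNAs, 6 fell and 1 rose with PD03 against thrombin, and against control 1 was lower and 1 higher. These counts lie beside 24.5% of all genes that fell against thrombin and 20.2% that were lower than in control.

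The nucleolar hub genes had the lowest median of the 8 roles against thrombin. All 4 fell with PD03 against thrombin by between 29.2 and 32.9%, with a median log2 fold change of -0.53, and all 4 were lower than in control. Npm1, the nucleolar chaperone nucleophosmin, stood at 363, 369 and 363 CPM in the control libraries, 391.7, 405 and 421 CPM in the thrombin libraries and 259, 289 and 270 CPM in the PD03 libraries. The 3 groups did not overlap, with thrombin highest and PD03 lowest. Npm1 rose with thrombin (log2 fold change 0.15, SE 0.04, adjusted p = 0.0017), fell with PD03 (-0.58, SE 0.04, adjusted p = 1.9e-16) and ended below control (-0.42, SE 0.04, adjusted p = 4.1e-12). Processed copies of Npm1 lie elsewhere in mammalian genomes, and the labels and methods do not say how reads that match several places were counted.

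Ddx21, an RNA helicase that links polymerase I transcription to rRNA processing, had the same order of groups. It read 129, 130 and 128 CPM with control, 141, 148 and 148 CPM with thrombin and 94.5, 102 and 105 CPM with PD03. The rise with thrombin was 12.9% (log2 fold change 0.18, SE 0.04, adjusted p = 0.002) and the fall with PD03 was 31.1% (log2 fold change -0.54, SE 0.05, adjusted p = 1.9e-13). Ncl encodes nucleolin, which binds nascent ribosomal RNA, and was the highest member per length, with a mean FPKM of 131 in the thrombin group. Its libraries read 481, 521 and 490 CPM with control, 500.3, 558 and 553 CPM with thrombin and 337, 418 and 387 CPM with PD03. Control and thrombin libraries of Ncl overlapped (log2 fold change 0.11, adjusted p = 0.071), though the difference passed without thrombin replicate 1 (adjusted p = 0.0091), control replicate 2 (adjusted p = 0.036) and PD03 replicate 1 or 2 (adjusted p = 0.012 and 0.035), and when Ncl was fitted in those 2 groups only (adjusted p = 0.014) or with no filter on low counts (adjusted p = 0.0057). The PD03 libraries lay below the rest (log2 fold change against thrombin -0.50, SE 0.05, adjusted p = 6.9e-12). Nolc1, a chaperone of snoRNPs, held within 121 to 122 CPM in the control libraries and 125 to 130 CPM in the thrombin libraries and stood at 82.9, 94.0 and 92.1 CPM with PD03, where its difference from control was -0.44 on the log2 scale (SE 0.05, adjusted p = 3.3e-10).

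Proteins of the box C/D snoRNPs, which guide methylation or cutting of ribosomal RNA, were read through 4 genes. With thrombin 2 of the 4 rose, and with PD03 all 4 fell. Fbl, the methyltransferase fibrillarin, read 70.4, 80.7 and 81.6 CPM in the control libraries, 83.2, 89.0 and 86.0 CPM in the thrombin libraries and 57.6, 60.4 and 53.1 CPM in the PD03 libraries. The groups did not overlap, but 1 control library stood apart below the other 2. The decrease of Fbl with PD03 was 33.8% against thrombin (log2 fold change -0.59, SE 0.06, adjusted p = 1.2e-11) and 26.4% against control (-0.44, SE 0.06, adjusted p = 4.1e-08). The rise of Fbl with thrombin (0.15, SE 0.06, adjusted p = 0.037) was lost without control replicate 1 (adjusted p = 0.32), thrombin replicate 2 (adjusted p = 0.15) or thrombin replicate 3 (adjusted p = 0.084).

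Nop56, a scaffold protein of the same particle, had the larger thrombin response. It went from 60.4, 62.0 and 59.9 CPM with control to 71.3, 76.7 and 73.3 CPM with thrombin, and to 52.1, 51.7 and 52.7 CPM with PD03. The replicates within each group were tight and the 3 groups were separate. The rise was 21.5% (log2 fold change 0.28, SE 0.05, adjusted p = 5e-05), and with PD03 the gene ended 14.2% below control (log2 fold change -0.22, SE 0.05, adjusted p = 0.0011). Nop58, the partner scaffold of Nop56, stood at 90.5, 91.9 and 87.0 CPM with control, 93.2, 96.7 and 97.9 CPM with thrombin and 67.7, 79.5 and 78.9 CPM with PD03. Its thrombin libraries lay above its control libraries without passing the test (log2 fold change 0.10, SE 0.05, adjusted p = 0.19), and it fell with PD03 against thrombin (-0.35, SE 0.05, adjusted p = 5e-07). Rrp9, which binds the U3 snoRNA, fell by 0.52 on the log2 scale (SE 0.08, adjusted p = 2.2e-07) from 33.4, 35.6 and 32.8 to 24.3, 23.8 and 23.0 CPM.

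In the box H/ACA snoRNPs, which turn uridine into pseudouridine and also hold telomerase RNA, all 3 members fell with PD03 against both groups. Dkc1, the pseudouridine synthase dyskerin, read 114, 125 and 136 CPM with control, 137, 143 and 147 CPM with thrombin and 112, 107 and 104 CPM with PD03. The control libraries were widely spread, the highest lying just under the lowest thrombin library. Dkc1 rose with thrombin (log2 fold change 0.19, SE 0.05, adjusted p = 0.0035) and fell with PD03 (-0.40, SE 0.05, adjusted p = 7.6e-09), and the rise was not past the test without control replicate 1 (adjusted p = 0.080). Nhp2, a core RNA-binding protein of these particles, had the larger fall. Its values were 79.5, 72.7 and 73.3 CPM with control, 81.4, 82.2 and 90.9 CPM with thrombin and 59.2, 52.2 and 53.7 CPM with PD03, with no overlap between groups. The fall of Nhp2 against thrombin was 35.0% (log2 fold change -0.62, SE 0.06, adjusted p = 3.2e-12). The rise of Nhp2 with thrombin (0.17, SE 0.06, adjusted p = 0.017) was lost without control replicate 2 (adjusted p = 0.082), control replicate 3 (adjusted p = 0.068) or thrombin replicate 3 (adjusted p = 0.17). Gar1, another core protein of the particle, did not differ between thrombin and control (log2 fold change -0.01, SE 0.09, adjusted p = 0.93) and fell from 21.9, 22.3 and 21.7 to 17.7, 16.1 and 15.8 CPM with PD03.

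The small subunit processome is the large early particle that folds and cuts the precursor of the small subunit's RNA. Of its 10 members none passed with thrombin alone, 9 fell with PD03 against thrombin, and 9 were lower than in control. Their median log2 fold changes were 0.03, -0.35 and -0.32 in these comparisons. Heatr1, a large scaffold protein also needed for polymerase I transcription, was at 45.4, 48.2 and 44.3 CPM with control, 42.8, 48.3 and 47.7 CPM with thrombin and 30.1, 32.0 and 33.1 CPM with PD03. Control and thrombin overlapped throughout, and PD03 lay well below both (log2 fold change against control -0.54, SE 0.07, adjusted p = 9.5e-09). Noc4l, a nucleolar complex protein, had the largest estimate against thrombin but a wide spread. Its libraries read 17.7, 23.3 and 23.0 CPM with control, 24.6, 24.0 and 24.95 CPM with thrombin and 19.3, 15.4 and 14.8 CPM with PD03. The highest PD03 library of Noc4l exceeded the lowest control library, and the log2 fold changes were -0.56 against thrombin (SE 0.10, adjusted p = 6.3e-06) and -0.36 against control (SE 0.10, adjusted p = 0.0039).

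The other processome members were similar in direction and varied in size. Utp4, Utp15, Utp20, Wdr43, Wdr75, Bms1 and Nop14 fell with PD03 against thrombin by 17.2 to 24.6%. Utp15 did not pass against control (log2 fold change -0.18, adjusted p = 0.056), though it did with library totals (adjusted p = 0.0015), without control replicate 1 (adjusted p = 0.028) and without thrombin replicate 1 or 2 (adjusted p = 0.038 and 0.035). Utp15 also passed there with no filter (adjusted p = 0.040), a stricter filter at a mean count of 50 (adjusted p = 0.050, rounded from just under the threshold), only the 2 groups (adjusted p = 0.045) and FPKM with either pseudocount (adjusted p = 0.023 and 0.020). Ddx10, an RNA helicase, was lower than in control only (-0.28, adjusted p = 0.024), and that call was lost without control replicate 1 (adjusted p = 0.051), control replicate 2 (adjusted p = 0.11) or PD03 replicate 1 (adjusted p = 0.13). Against thrombin, Ddx10 passed without thrombin replicate 1 (adjusted p = 0.038), with library totals (adjusted p = 0.021) and with FPKM and a pseudocount of 0.1 (adjusted p = 0.049). Wdr75 read 26.2 CPM in PD03 replicate 1 and 34.3 and 32.1 CPM in the other PD03 libraries, and without that library or control replicate 2 its difference from control did not pass (adjusted p = 0.26 and 0.087).

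The 4 factors of later small subunit maturation differed in how they responded to thrombin, with log2 fold changes from -0.30 to 0.12. Rrp12, which helps carry pre-ribosomal particles out of the nucleus, fell from 48.6, 48.8 and 43.2 CPM with thrombin to 36.0, 32.3 and 32.4 CPM with PD03 (log2 fold change -0.48, SE 0.07, adjusted p = 5.5e-08), and its control libraries lay at 42.7, 42.9 and 43.5 CPM. Ltv1, an assembly factor that leaves the particle in a late cytoplasmic step, went another way. It read 43.0, 47.1 and 44.6 CPM with control, 34.3, 37.1 and 37.6 CPM with thrombin and 35.6, 35.9 and 40.5 CPM with PD03. Thrombin lowered it by 19.0% (log2 fold change -0.30, SE 0.07, adjusted p = 0.00038), the only fall among the members in that comparison. Thrombin and PD03 libraries of Ltv1 overlapped (log2 fold change 0.04, SE 0.07, adjusted p = 0.69), and with PD03 the gene stayed below control (-0.27, SE 0.07, adjusted p = 0.0011).

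The export-competence factor Tsr1 and the nuclease Nob1, which makes the last cut of the small subunit RNA, had small and less stable decreases. Tsr1 in the PD03 libraries read 36.8, 52.3 and 44.3 CPM, beside 49.8 to 54.6 CPM with thrombin and 48.1 to 54.2 CPM with control. PD03 replicate 2 thus lay among the other groups and PD03 replicate 1 far below them. Against thrombin the log2 fold change of Tsr1 was -0.24 (adjusted p = 0.0077), and without PD03 replicate 1 it was -0.12 (adjusted p = 0.17). Against control Tsr1 was not past the test without PD03 replicate 1 (adjusted p = 0.27), control replicate 2 (adjusted p = 0.052) or control replicate 3 (adjusted p = 0.070). Nob1 fell by 11.7% against thrombin (adjusted p = 0.013, or 0.12 without thrombin replicate 3) and by 10.4% against control (adjusted p = 0.038). That difference of Nob1 from control was lost without control replicate 1 (adjusted p = 0.13), control replicate 2 (adjusted p = 0.055), PD03 replicate 2 (adjusted p = 0.11) or PD03 replicate 3 (adjusted p = 0.075).

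**Figure D3:**
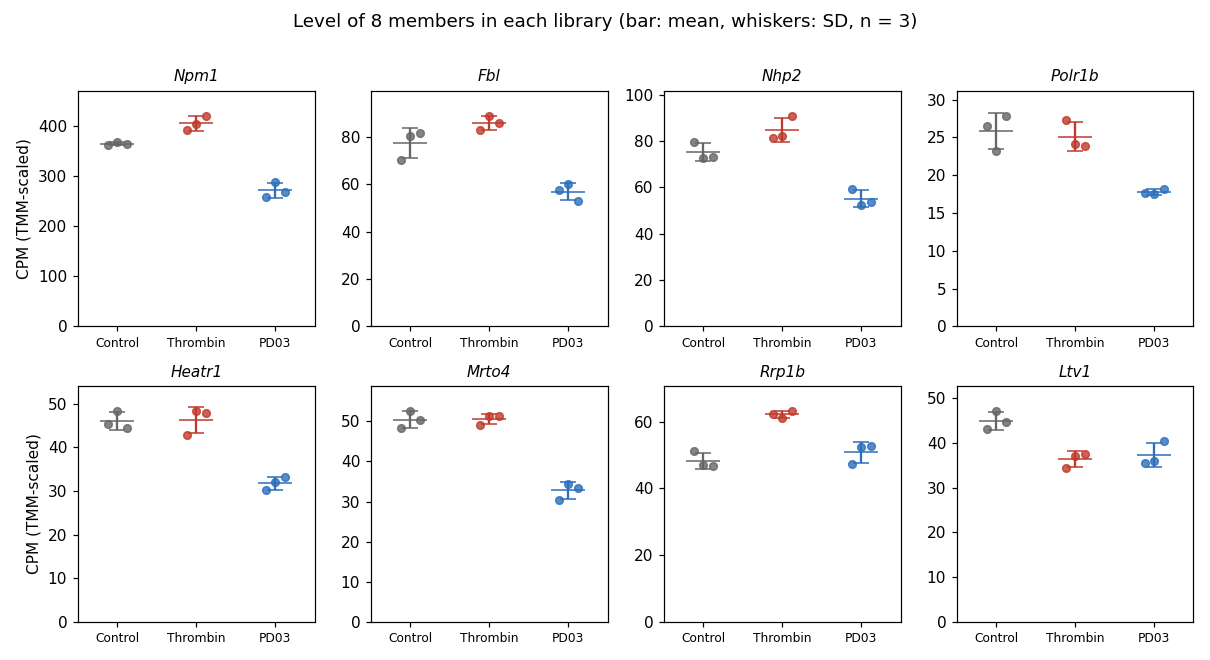
TMM-scaled CPM of 8 members in each library (points), with the group mean (bar) and SD (whiskers) of 3 libraries, on axes that start at 0. Npm1, Fbl and Nhp2 are highest with thrombin and lowest with PD03, Polr1b, Heatr1 and Mrto4 differ only in the PD03 group, Rrp1b is raised in the thrombin group only, and Ltv1 is lower in both treated groups.

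Large subunit assembly was read through the PeBoW complex and 11 other tested factors. PeBoW (Pes1, Bop1 and Wdr12) is needed to process the large subunit's RNA, and its 3 genes fell with PD03 by unequal amounts. Bop1 read 65.8, 65.7 and 70.4 CPM with control, 70.8, 68.8 and 72.9 CPM with thrombin and 52.3, 52.0 and 52.6 CPM with PD03, a decrease of 26.1% against thrombin (log2 fold change -0.44, SE 0.05, adjusted p = 5.6e-09). Pes1 read 70.1, 72.04 and 75.3 CPM with control, 67.6, 76.8 and 75.7 CPM with thrombin and 62.2, 63.5 and 64.6 CPM with PD03, a decrease of 13.6% (-0.21, SE 0.06, adjusted p = 0.0014). Wdr12, at 20.7, 22.0 and 22.4 CPM with control, 24.5, 26.4 and 22.0 CPM with thrombin and 16.7, 20.3 and 18.7 CPM with PD03, fell by 23.8% (-0.39, SE 0.09, adjusted p = 0.00026). All 3 were also lower than in control, but Wdr12 only narrowly (adjusted p = 0.042), and not without control replicate 2 (adjusted p = 0.089), control replicate 3 (adjusted p = 0.11), PD03 replicate 1 (adjusted p = 0.23) or PD03 replicate 3 (adjusted p = 0.073).

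Among the other large subunit factors, Mrto4 had the largest fall with PD03 against both groups and Rrp1b the largest rise with thrombin. Mrto4, which holds the place of the ribosomal stalk protein during assembly, was at 48.4, 52.5 and 50.3 CPM with control, 49.1, 51.3 and 51.4 CPM with thrombin and 30.5, 34.4 and 33.5 CPM with PD03. Control and thrombin overlapped, and the PD03 libraries were 35.4% lower than thrombin (log2 fold change -0.63, SE 0.06, adjusted p = 3.2e-11) and 35.1% lower than control (-0.62, SE 0.06, adjusted p = 8.5e-11). Rrp1b, a nucleolar protein of the large subunit pathway that also binds chromatin, had the largest rise with thrombin. Its libraries read 51.1, 47.2 and 46.6 CPM with control, 62.4, 61.2 and 63.2 CPM with thrombin and 47.2, 52.5 and 52.8 CPM with PD03. Thrombin raised Rrp1b by 28.7% (log2 fold change 0.36, SE 0.06, adjusted p = 3.7e-06) and PD03 lowered it by 18.5% from there (-0.30, SE 0.06, adjusted p = 4.5e-05). PD03 and control libraries of Rrp1b overlapped (0.07, SE 0.06, adjusted p = 0.39), and with library totals the estimate had the other sign and again did not pass.

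Nop16 followed Rrp1b with smaller changes, from 38.6, 43.3 and 39.6 CPM with control to 46.9, 45.6 and 44.9 CPM with thrombin and 38.5, 39.5 and 34.9 CPM with PD03. Its rise with thrombin (log2 fold change 0.18, SE 0.06, adjusted p = 0.03) did not pass without control replicate 1 (adjusted p = 0.14), control replicate 3 (adjusted p = 0.090), thrombin replicate 1 (adjusted p = 0.085) or thrombin replicate 2 (adjusted p = 0.061). Against control Nop16 did not pass with PD03 (-0.10, adjusted p = 0.22), except with library totals (adjusted p = 0.0057) and with the FPKM values. Ppan, Noc2l, the RNA methyltransferase Nop2 and Rrs1 fell with PD03 against thrombin, with log2 fold changes of -0.42, -0.40, -0.36 and -0.26, and all 4 were lower than in control, Rrs1 narrowly (adjusted p = 0.033) and not without control replicate 1 (adjusted p = 0.10), control replicate 2 (adjusted p = 0.14) or PD03 replicate 1 (adjusted p = 0.091).

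The nucleolar GTPases Gnl2 and Gnl3, with Noc3l and Nip7, had small estimates against thrombin. Gnl3, nucleostemin, fell by 10.6% against thrombin (log2 fold change -0.16, SE 0.07, adjusted p = 0.042), a call lost without thrombin replicate 2 (adjusted p = 0.055), thrombin replicate 3 (adjusted p = 0.16), PD03 replicate 1 (adjusted p = 0.11) or PD03 replicate 2 (adjusted p = 0.058). Against control Gnl3 was lower (adjusted p = 0.026), but not without control replicate 1 (adjusted p = 0.17) or PD03 replicate 1 (adjusted p = 0.081). Gnl2, a related GTPase, read 52.5, 53.2 and 54.6 CPM with control, 53.1, 56.1 and 50.2 CPM with thrombin and 47.8, 49.2 and 52.5 CPM with PD03. The 3 groups of Gnl2 overlapped, and no comparison passed with TMM scaling (adjusted p = 0.94, 0.19 and 0.18). Noc3l and Nip7 also passed in none. With library totals Gnl2, Noc3l and Nip7 were lower with PD03 against both groups.

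Levels between genes can be set side by side only per length, with the FPKM values of the authors (fragments per kilobase of transcript, scaled to library size). By that measure the members spread from Ncl, Npm1 and Fbl, at 122 ± 4.57, 114 ± 0.973 and 67.1 ± 4.79 FPKM in the control group (SD, n = 3), to Ddx10 and Utp15 at 5.59 ± 0.448 and 5.95 ± 0.371 FPKM. Ncl and Npm1 stood apart from all others, and Ncl exceeded Npm1 by more than the SD of either. Next to Fbl came Nop16 (36.7 ± 2.02), Dkc1 (36.0 ± 2.98), Pes1 (34.7 ± 1.01) and Nolc1 (34.7 ± 0.255 FPKM), which did not differ beyond their spread. Polr1a and Polr1b, whose products meet in equal number in the polymerase, were at 7.07 ± 0.319 and 7.03 ± 0.671 FPKM with control and 5.71 ± 0.171 and 4.46 ± 0.0772 FPKM with PD03. The scaffolds Nop56 and Nop58 stood at 32.8 ± 0.599 and 19.2 ± 0.601 FPKM with control and 39.4 ± 1.45 and 20.3 ± 0.483 FPKM with thrombin.

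The fall was not confined to the listed members. Of 80 further assembly factors tested (Ddx18 had no row), 58 fell and 1 rose with PD03 against thrombin, with a median log2 fold change of -0.26, and 50 were lower and 1 higher than in control, with a median of -0.21. The largest falls in that list past the larger threshold were those of Imp3, a U3 snoRNP protein, and Rrp8, a nucleolar methyltransferase-like protein. Imp3 averaged 28.2 ± 2.02 CPM with control, 29.6 ± 1.82 CPM with thrombin and 17.9 ± 0.644 CPM with PD03 (SD, n = 3), and fell against thrombin by 0.73 on the log2 scale (SE 0.08, adjusted p = 4e-10). Rrp8 averaged 11.8 ± 0.952, 14.5 ± 0.766 and 8.96 ± 1.54 CPM (SD, n = 3), a log2 fold change of -0.70 (SE 0.12, adjusted p = 3.1e-06). With thrombin alone 10 of the 80 rose and 3 fell, where 14.1% of all genes rose and 14.6% fell. For PD03 the shares of all genes were 24.5% lower and 25.3% higher against thrombin, and 20.2% lower and 19.7% higher against control.

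The products that these factors assemble moved in the same direction. Among 66 tested genes of cytosolic ribosomal proteins, 53 fell and 1 rose with PD03 against thrombin, with a median log2 fold change of -0.25, and none passed the larger threshold. Against control 49 were lower and none was higher, with a median of -0.19 (52 lower and 0 higher at an unadjusted p under 0.05). Their summed level was 30080 to 30950 CPM with control, 31070 to 32460 CPM with thrombin and 26490 to 27740 CPM with PD03. With thrombin 14 of 66 rose and 2 fell, where 14.1% of all genes rose and 14.6% fell. Among all genes 24.5% fell with PD03 against thrombin and 20.2% were lower than in control. Of the 79 listed, 7 had no row, 5 stood on more than 1 row and 1 was under the filter, and many ribosomal protein genes have near-identical pseudogenes, so single values are uncertain.

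**Figure D4:**
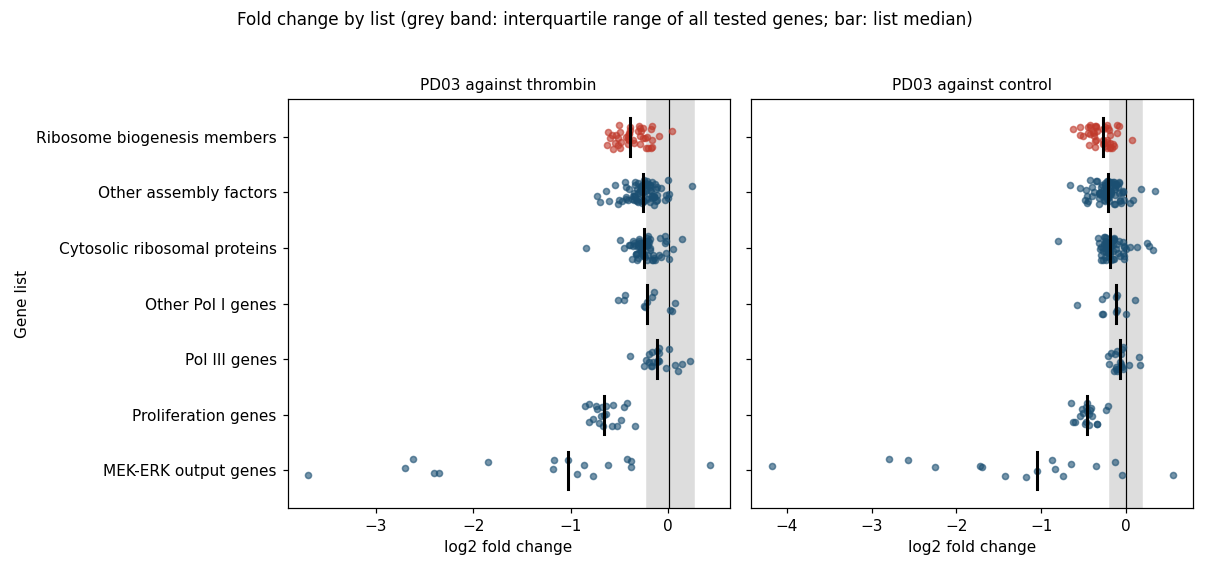
Log2 fold changes of single genes (points) in 7 lists for PD03 against thrombin (left) and PD03 against control (right), with the list median (black bar) and the interquartile range of all tested genes (grey). The medians of the ribosome biogenesis members, -0.39 and -0.27, lie left of the grey band, those of proliferation genes and MEK-ERK output genes lie further left, and those of polymerase III genes lie inside it.

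Genes downstream of MEK and ERK and genes of the cell cycle changed in the same libraries. Of 17 MEK-ERK output genes, 16 fell and 1 rose with PD03 against thrombin, and 13 fell past the larger threshold. Among all genes 24.5% fell and 25.3% rose, and 6.31% fell past the larger threshold. Dusp6, a phosphatase that ERK induces, averaged 30.4 ± 1.35, 23.1 ± 3.07 and 4.32 ± 1.05 CPM with control, thrombin and PD03 (SD, n = 3), and fell against thrombin by 2.40 on the log2 scale (SE 0.12, adjusted p = 4.1e-20). Egr1, an immediate early gene, fell by 3.70 on the log2 scale (SE 0.12, adjusted p = 1.7e-27) and Phlda1 by 2.70 (SE 0.08, adjusted p = 5.2e-29). With thrombin alone the 17 genes were divided, 5 higher and 5 lower. Phlda1 (log2 fold change 0.98) and Dusp4 (0.94) rose most, whereas Dusp6 and Egr1 fell by 0.40 and 0.48 on the log2 scale.

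All 20 proliferation genes fell with PD03 against thrombin (median log2 fold change -0.66, 13 past the larger threshold) and all 20 were lower than in control (median -0.46). With thrombin 15 of 20 rose and none fell, with a median of 0.21 (16 higher and 0 lower at an unadjusted p under 0.05). Among all genes 14.1% rose and 14.6% fell with thrombin. With PD03 24.5% of all genes fell against thrombin, 6.31% past the larger threshold, and 20.2% were lower than in control. Mcm6, a replication helicase subunit, averaged 132 ± 1.46, 155 ± 4.54 and 85.5 ± 2.92 CPM (SD, n = 3) in the control, thrombin and PD03 groups, and Aurka, a mitotic kinase, 36.0 ± 1.21, 47.9 ± 3.33 and 27.1 ± 2.53 CPM (SD, n = 3). The summed proliferation genes reached 2117 to 2130, 2417 to 2441 and 1542 to 1588 CPM, and thus had the same order of groups as the summed ribosome biogenesis genes. The part of proliferation in the ribosome biogenesis result was not tested.

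The 10 tested genes of the Myc network were divided. With PD03 against thrombin 3 rose and 3 fell (median log2 fold change 0.08), where 25.3% of all genes rose and 24.5% fell. Against control 4 were higher and 1 was lower (median 0.12), where 19.7% of all genes were higher and 20.2% lower. Myc itself was lower with PD03. It read 67.5, 64.2 and 67.1 CPM with control, 76.4, 69.3 and 71.8 CPM with thrombin and 41.4, 45.3 and 47.9 CPM with PD03. PD03 libraries lay below all others (log2 fold change -0.69 against thrombin, SE 0.06, adjusted p = 2.7e-13, and -0.57 against control, SE 0.06, adjusted p = 1.7e-10), and the difference between thrombin and control did not pass (0.13, SE 0.06, adjusted p = 0.091). Its partner Max did not pass in any comparison and averaged 48.4 ± 2.65, 52.1 ± 2.02 and 50.6 ± 0.846 CPM (SD, n = 3). Mxd4, which competes with Myc for Max and represses its targets, moved the other way, at 132 ± 1.44 CPM with control, 91.5 ± 2.98 CPM with thrombin and 163 ± 13.3 CPM with PD03 (SD, n = 3). Mxd4 fell with thrombin (log2 fold change -0.53, SE 0.05, adjusted p = 6.2e-12) and rose with PD03 (0.83, SE 0.05, adjusted p = 1.9e-18). Mycl was rare, averaging 0.385, 1.39 and 0.475 CPM, rose with thrombin (1.86, SE 0.44, adjusted p = 0.00094) and fell with PD03 (-1.54, SE 0.42, adjusted p = 0.002). Mycn had at most 5 counts in any library and was not tested.

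The promoters of the members were searched for the letters of a pair of motifs: CACGTG, the E-box to which Myc and Max bind, and CCGGAA, the core of sites for Ets factors such as those that ERK phosphorylates. RefSeq promoter windows of the GRCr8 assembly ran from 250 bases before to 50 bases after the transcript start, and both strands were searched. A member was kept only if its symbol had a single window, which held for 40 of the 44 symbols, on 16 chromosomes. Wdr43, Bop1, Rrs1 and Gnl2 were left out by this rule. The wider sets of windows below were not limited in this way. CACGTG reads the same on both strands, and CCGGAA and CACGTG share no full match. CACGTG was present in 12 of 40 windows (30%), in 6.42% of all 33469 windows and in 8.5% of the 14632 windows whose symbol is in the table. CCGGAA was present in 23 of 40 (57.5%), in 15% of all windows and in 22.6% of those in the table. Both were present in 8 of 40 (20%), and in 1.3 and 2.18%. The median GC content was 59.2% for the members, 51.7% for all windows and 59.3% for those in the table.

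The median fall was not larger in the members with an E-box. The 12 members with CACGTG had a median log2 fold change of -0.30 with PD03 against thrombin, from -0.59 to 0.04, and the 27 tested members whose window lacked it had a median of -0.41, from -0.63 to -0.17. Members with neither motif in the window had log2 fold changes against thrombin from -0.63 (Mrto4) to -0.18 (Nob1). Npm1, Ncl, Nop56 and Heatr1 were among them, as were Polr1a (-0.22), Nop16 (-0.28) and Rrp1b (-0.30), which fell less. Whether either motif bears on the fall was not tested. The windows printed are those with CACGTG among the genes that led their role in some comparison, to show where the letters lie. They are written 5′ to 3′ on the gene's strand, with both motifs in capitals. Fbl is at chr1:92597157-92597456 (plus strand), Rrp12 at chr1:250655269-250655568 (minus strand), Dkc1 at chrX:157751401-157751700 (plus strand) and Ltv1 at chr1:9398508-9398807 (minus strand).
Fbl: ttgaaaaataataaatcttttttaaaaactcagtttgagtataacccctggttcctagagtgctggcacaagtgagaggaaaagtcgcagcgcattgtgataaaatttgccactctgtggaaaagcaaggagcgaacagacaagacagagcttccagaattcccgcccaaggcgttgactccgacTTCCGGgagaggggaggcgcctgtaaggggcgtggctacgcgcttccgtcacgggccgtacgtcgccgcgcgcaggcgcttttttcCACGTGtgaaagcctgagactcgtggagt
Rrp12: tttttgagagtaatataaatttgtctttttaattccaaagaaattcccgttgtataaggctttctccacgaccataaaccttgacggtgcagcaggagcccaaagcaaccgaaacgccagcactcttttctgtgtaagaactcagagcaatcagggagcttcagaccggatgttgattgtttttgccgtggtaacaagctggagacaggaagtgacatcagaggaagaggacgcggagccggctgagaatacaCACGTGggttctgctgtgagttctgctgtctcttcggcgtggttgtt
Dkc1: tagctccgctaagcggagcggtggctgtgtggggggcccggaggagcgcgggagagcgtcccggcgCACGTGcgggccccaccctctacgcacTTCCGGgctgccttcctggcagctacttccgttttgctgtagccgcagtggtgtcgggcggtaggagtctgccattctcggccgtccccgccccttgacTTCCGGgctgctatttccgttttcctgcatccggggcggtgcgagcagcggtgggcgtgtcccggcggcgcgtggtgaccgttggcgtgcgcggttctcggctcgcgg
Ltv1: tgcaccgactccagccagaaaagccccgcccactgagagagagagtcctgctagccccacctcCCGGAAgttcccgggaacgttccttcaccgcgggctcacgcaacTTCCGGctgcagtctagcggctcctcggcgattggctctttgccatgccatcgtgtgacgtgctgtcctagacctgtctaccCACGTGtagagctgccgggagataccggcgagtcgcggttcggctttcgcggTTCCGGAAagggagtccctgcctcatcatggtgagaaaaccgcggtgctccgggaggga
Fbl, which fell by 33.8% with PD03, has its E-box 22 bases after the start and 1 Ets core 65 bases before it. Rrp12 has the E-box 4 bases after the start and no Ets core. Dkc1 has the E-box 184 bases before the start and 2 Ets cores nearer to it. Ltv1, which did not fall against thrombin, has the E-box 61 bases before the start and 4 Ets matches, of which the last 2 overlap on opposite strands. A match is a string of letters, and no binding was measured.

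**Figure D5:**
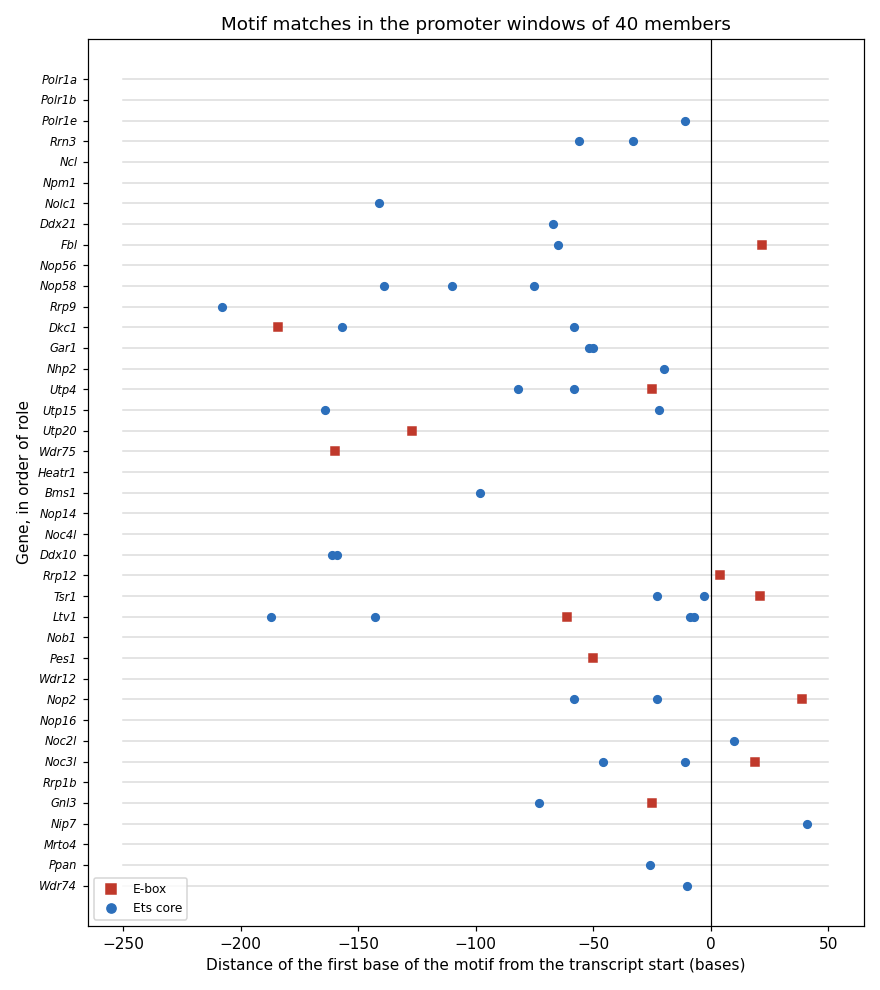
Position of each CACGTG (E-box, red squares) and CCGGAA (Ets core, blue circles) match in the promoter windows of 40 members, as the distance in bases of the motif's first base from the transcript start (vertical line). Windows of 12 members hold an E-box and those of 23 an Ets core, and matches lie on both sides of the start.

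The size of these results depended on the scaling, and no passed call of a member changed direction between TMM and library totals. With library totals in place of TMM, the median of all genes moved to -0.09 for PD03 against thrombin and to -0.12 for PD03 against control, and the split of all genes went from 3358 higher and 3250 lower to 2431 and 4578, and from 2616 and 2673 to 1636 and 4559. The median of the members minus the median of all genes was -0.40 against thrombin under both scalings, and -0.27 against control under both. A change of scaling moves all genes of a comparison by about the same amount. This difference therefore could hardly change, and it does not test the scaling. With library totals 42 of the 43 members fell in each comparison, with Ltv1 the exception against thrombin and Rrp1b against control.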

How the data were processed

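RNA-seq was read in 9 libraries of rat osteoblasts, 3 in each of the control, thrombin and PD03 groups, which were taken from GEO's labels. The authors deposited raw read counts and FPKM values (fragments per kilobase, scaled to library size) for 19085 genes. The submitters' processing notes name mRatBN7.2, HISAT2 and HTSeq 0.13.5, whereas the study's methods name Rnor_6.0 and featureCounts, so the counter and build behind the table remain unclear. Neither the labels nor the methods state the multi-mapping and strand settings.

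Counts were tested with edgeR 4.0.16 (R 4.3.3) by quasi-likelihood fits to all 9 libraries, with TMM scaling, filterByExpr at a minimum count of 10, 13256 genes tested and Benjamini-Hochberg adjustment over all of them. The biological coefficient of variation was 4.28%. Total counts of 15447832 to 19841468 per library limit precision mostly for low genes. Genes passed at an adjusted p under 0.05, and the larger threshold added an absolute log2 fold change above 0.58. Standard errors were the absolute log2 fold change over the square root of F. Replicates all differed by more than sampling noise, with a chi-square per degree of freedom of 1.82 to 4.03. Scripts were tested on simulated data.

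Alternatives were DESeq2 1.42.0 size factors and test, limma 3.58.1 on voom weights and on log2 FPKM with a pseudocount of 1 or 0.1, library totals, other filters, glmTreat, fits of only 2 groups, a replicate block and leaving out each library. Named with values were 13 fixed members, the largest rise and fall in each of 8 roles, members past the larger threshold, the 2 largest changes past it in each other list (where the higher group averaged 1 CPM or more), and Myc, Mycn, Max and Dusp6; other members are summarised or named for calls that depend on 1 library. Members and lists were chosen with earlier results of these data known. Promoters were RefSeq windows of GRCr8, a build other than that of the files. Figures were drawn with matplotlib 3.10.9 in Python 3.11.15.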

Additional observations from a re-analysis of the deposited data

How the results depend on the processing

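No result for the ribosome biogenesis genes turned its direction past a test under any alternative. With library totals the members lower with PD03 past the larger threshold were 12 against thrombin and 4 against control (3 and 1 with TMM), the members lower with thrombin were 2, and the median log2 fold changes were -0.48 and -0.39. With FPKM and a pseudocount of 1, limma gave 10 members past the larger threshold against thrombin, 2 members lower with thrombin, and medians of -0.44 and -0.36. With a pseudocount of 0.1 it gave 12, 4 and 2 members and medians of -0.48 and -0.38. A test against the fold threshold itself (glmTreat) left 0 members in either PD03 comparison. Leaving out 1 library at a time gave 35 to 39 members lower than with thrombin and 30 to 38 lower than in control, 2 to 5 and 0 to 2 past the larger threshold, 5 to 9 higher and 1 to 1 lower with thrombin, and medians of -0.40 to -0.33, -0.31 to -0.24 and 0.05 to 0.09. Without PD03 replicate 1 the median against thrombin was -0.33. DESeq2 gave 36 members lower against thrombin, 29 lower than in control and 6 higher with thrombin. Apart from glmTreat there were 19 alternative settings. Of the calls, 34 of 38, 28 of 37 and 5 of 9 stood under all 19 for PD03 against thrombin, PD03 against control and thrombin against control. The cause of these changes was not tested.

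With the replicate number as a block the medians were 0.07, -0.38 and -0.27, with 9 members higher with thrombin, where Ncl then passed (adjusted p = 0.015), 38 lower with PD03 against thrombin and 38 lower than in control, where Utp15 then passed (adjusted p = 0.046). The block changed no other call among the members. The numbers did not pair the samples: deviations of same-numbered libraries correlated between -0.05 and 0.05 over 9 pairs, and other pairs between -0.06 and 0.06 over 18. Depth limits mainly the rare markers and Mycl, which rest on few counts.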

Other observations

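Genes that mark differentiation moved in several directions. Of 9 tested osteoblast markers, 4 rose and 3 fell with thrombin, and 3 rose and 3 fell with PD03 against thrombin. Among all genes 14.1% rose and 14.6% fell with thrombin, and 25.3% rose and 24.5% fell with PD03 against thrombin. Spp1, the matrix protein osteopontin, averaged 63.7 ± 0.764, 185 ± 1.10 and 53.1 ± 0.424 CPM (SD, n = 3) in the control, thrombin and PD03 groups. It rose with thrombin (log2 fold change 1.54, SE 0.05, adjusted p = 3.5e-28) and fell with PD03 (-1.80, SE 0.05, adjusted p = 7.3e-31). Alpl, the alkaline phosphatase of mineralising cells, fell with thrombin (-2.24, SE 0.42, adjusted p = 4e-05) and rose with PD03 (3.14, SE 0.38, adjusted p = 2.8e-09) at levels of few CPM.

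Of 7 tested chondrocyte markers, 3 rose and 1 fell with thrombin, and 3 rose and 0 fell with PD03 against thrombin (4 and 0 at an unadjusted p under 0.05, edgeR). Comp averaged 3.45, 2.44 and 10.97 CPM in those groups and Col9a1 4.09, 3.77 and 7.47 CPM, and both rose with PD03 (log2 fold change 2.16 and 0.98 against thrombin). Acan and Matn3, both near 1 CPM, rose with thrombin (1.29 and 1.26). Col2a1, picked out after its values were seen because it made up most of the chondrocyte sum, fell with thrombin from 84.4 to 49.2 CPM (-0.78, SE 0.06, adjusted p = 1.3e-14). With PD03 against control, 6 of the 7 chondrocyte markers were higher and 1 was lower, all past the larger threshold. Of 3 tested myeloid markers 3 were higher there, of 3 endothelial markers 2 were higher, and of 3 adipocyte markers 2 were lower. Among all genes 19.7% were higher and 20.2% lower, and 4.9% and 4.07% passed the larger threshold. All 3 tested adipocyte markers fell with thrombin and 2 rose with PD03 against thrombin. Lpl, lipoprotein lipase, averaged 207, 99.6 and 158 CPM and Pparg, the adipocyte transcription factor, 1.22, 0.331 and 1.14 CPM, and both fell with thrombin (-1.06 and -1.88) and rose with PD03 (0.67 and 1.77). Ctsk, a protease of osteoclasts that fibroblast-like cells can also express, averaged 129, 94.7 and 164 CPM. The endothelial receptors Kdr and Tek rose with PD03 against thrombin (1.42 and 0.62), at 1.88 and 9.51 CPM with PD03.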
